A study of Mus musculus with 3 samples.

Results

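The sample described here was a single array of PDL-L2 cells that had received a control siRNA and then vehicle, 1 of the 3 arrays of the series. PDL-L2 is an immortalised mouse line derived from the periodontal ligament, so the array reads 1 cultured line rather than the tissue. The cells were transfected with a non-targeting siRNA pool (siCont), kept for 48 h and then exposed to vehicle for 12 h, so they were not untreated cells. The other arrays came from siCont cells given recombinant human BMP-2 at 250 ng/ml for 12 h (siCont BMP-2) and from cells given an siRNA pool against endoglin followed by the same BMP-2 exposure (siENG BMP-2). The labels name a differentiation medium with ascorbic acid and beta-glycerophosphate for the BMP-2 exposure, and the medium of the vehicle cells is not stated apart from it. With 1 array per condition there was no replicate and no test, and every count below describes these arrays only. The number of arrays limits the precision.

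The periodontal ligament is the collagen-rich tissue that slings the tooth root to the jaw bone. Its fibroblasts secrete type I and type III collagen and periostin, hold the fibres under chewing load and derive from cranial neural crest. They also carry receptors for BMPs, the bone morphogenetic proteins that drive osteoblast formation. The array gives a linear signal intensity for each probe set, a group of short oligonucleotides read together and in most cases annotated to 1 gene. Signals of different probe sets depend on how well each binds, so a position in the ranking is a position among signals and not an order of transcript abundance.

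All 45037 probe sets other than the Affymetrix controls were ranked by their signal on the vehicle array. A signal was called bright at 152 or more, the 75th percentile of all probe sets over the 3 arrays. It was called within the Bacillus range at 13.1 or less, the highest signal that 27 probe sets for Bacillus transcripts, which mouse RNA does not hold, reached on any array. On the vehicle array itself those controls ran from 0.2 to 11.2 with a median of 2.4. By these limits 24.2% of probe sets were bright and 39.7% lay in the Bacillus range. A gene took the signal of its brightest probe set on the vehicle array and was placed in the Bacillus range only where every probe set was. In counts of classes on another array, a gene took its class from the probe set brightest on that array. Of 18193 genes, 6507 were bright (35.8%), 5615 lay between the limits (30.9%) and 6071 lay in the Bacillus range (33.4%). These shares are the background for every list below, and the median signal over all genes was 48.8.

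**Figure D1:**
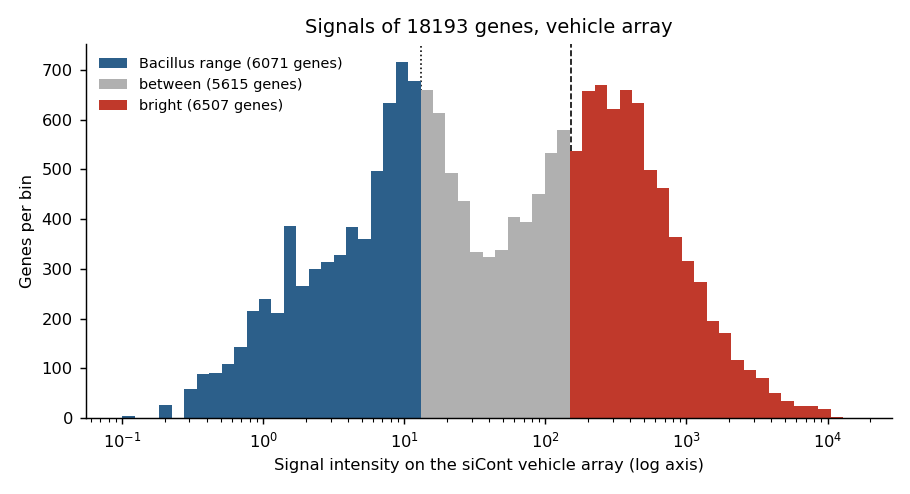
Number of genes per bin (vertical axis) against the signal intensity of each gene's brightest probe set on the siCont vehicle array (horizontal log axis), coloured by class. The dotted line marks 13.1 and the dashed line 152, and the genes form a dim and a bright hump with a trough between the limits.

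A signal in the Bacillus range does not show that a transcript was absent. Rps16, a ribosomal protein that every cell makes, had a signal of 0.6 with vehicle from the only probe set annotated to it alone. That probe set had 1.3 and 0.4 after siCont with BMP-2 and siENG with BMP-2. Probe sets annotated to several genes were not used. A bright gene can likewise rest on 1 of several probe sets. Among 4523 bright genes with several probe sets, 1093 (24.2%) had another probe set in the Bacillus range and 1069 (23.6%) were bright in every probe set. Had the dimmest probe set been taken, the bright count would have changed by over 1.5 times in 23 of the 35 lists and the Bacillus-range count in 17. With the median Bacillus control as the limit the Bacillus-range count would have changed as much in 32. Since the RNA came from a bulk culture, fewer cells making a transcript and less transcript per cell cannot be told apart. Below, 3 signals set side by side are those of the siCont vehicle, siCont BMP-2 and siENG BMP-2 arrays, in that order and from the same probe set.

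The brightest genes were those of translation, the cytoskeleton and the matrix. Eef1a1, the elongation factor that delivers aminoacyl-tRNA to the ribosome, had the highest gene signal at 10973, 10943 and 11635. Ribosomal proteins made up 14 of the 25 brightest genes and 34 of the 100 brightest, among them Rps3a1, Rpl38, Rpl41, Rplp0, Rps29, Rps2 and Rps28. Of the 43 genes read with a ribosomal protein symbol, 39 were bright (90.7%, against 35.8% of all genes). Many ribosomal protein genes have processed pseudogenes of near-identical sequence, so the locus behind such a signal is uncertain. The other genes of the top 25 were Actb (beta-actin), Tpt1, Lgals1, Sparc, Col1a2, Anxa1, Fth1, S100a6, Mt1 and Tmsb10. Lgals1 encodes galectin-1, Anxa1 the calcium-dependent membrane binder annexin A1, Fth1 the ferritin heavy chain, Mt1 a metallothionein and Tmsb10 an actin-sequestering thymosin. Not every probe set of these genes was bright, since the second probe set of Tpt1 had a signal of 2.0 and the dimmest of Tmsb10 6.5. Sparc, a collagen-binding glycoprotein of bone and ligament, and Col1a2, the second chain of type I collagen, were the 2 matrix genes in the top 25, and 6 genes of the matrix lists were in the top 100.

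Genes fixed as markers of periodontal ligament and tendon were split between the brightest and the dimmest signals. Of 24 genes read, 12 were bright (50%, against 35.8% of all genes), 6 lay between the limits and 6 in the Bacillus range (25%, against 33.4%), with a median of 173. With the dimmest probe set 8 were bright and 11 lay in the Bacillus range, and with the mean 9 and 7. Of all genes with several probe sets 50.2% were bright, and members such as Col1a1, Col12a1, Aspn and Dcn had several. Postn encodes periostin, the matricellular protein for which the ligament is named as a source, and its signals were 4428, 5491 and 4614. Col1a1, the first chain of type I collagen, had 3408, 3278 and 4361 in its brighter probe set, and its second probe set had 476 on the vehicle array. Both genes were far above the bright limit on all 3 arrays. Scx, the scleraxis transcription factor of tendon and ligament progenitors, had 27.3, 33.6 and 42.3, between the limits on every array, and 22.5 in its second probe set. Aspn, which encodes asporin, a small proteoglycan of the ligament that binds collagen and BMP-2, had 0.8, 2.4 and 8.3, and its second probe set had 0.7 with vehicle. Of the 4 genes taken as markers of the label, then, Postn and Col1a1 were bright, Scx was not, and Aspn stayed within the Bacillus range on all 3 arrays.

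Among the other ligament genes, several collagen chains were bright, and Tnmd, Dcn and Thbs4 were in the Bacillus range. Col1a2 had signals of 9569, 9773 and 10255, and Col3a1, the type III chain that makes thin fibres, had 2849, 2814 and 3608. Col12a1, which links fibrils, had a vehicle signal of 1838 and Pdgfrb, the PDGF receptor of mural and ligament fibroblasts, 1662. The metastasin gene S100a4, the lysyl hydroxylase gene Plod2, the immediate-early gene Egr1, fibromodulin (Fmod), the mesenchymal homeobox gene Prrx1 and tenascin C (Tnc) were the rest of the bright members, from 204 for Tnc to 7167 for S100a4. The single probe set of Tnmd, which encodes tenomodulin, a membrane protein of mature tenocytes, gave 10.3, 5.5 and 0.8. Mkx, a homeobox gene of tendon, had 106.8, 111.6 and 101.6, between the limits and steady over the arrays. Decorin (Dcn), a proteoglycan that spaces collagen fibrils, had 8.5, 18.0 and 1.7. With Gli1, Tgfbi, Thbs4, Aspn and Tnmd it made up the members in the Bacillus range, while Twist1 at 141.6, Egr2, Axin2 and Col14a1 lay between the limits. On each of the other arrays the list also had 12 bright members.

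**Figure D2:**
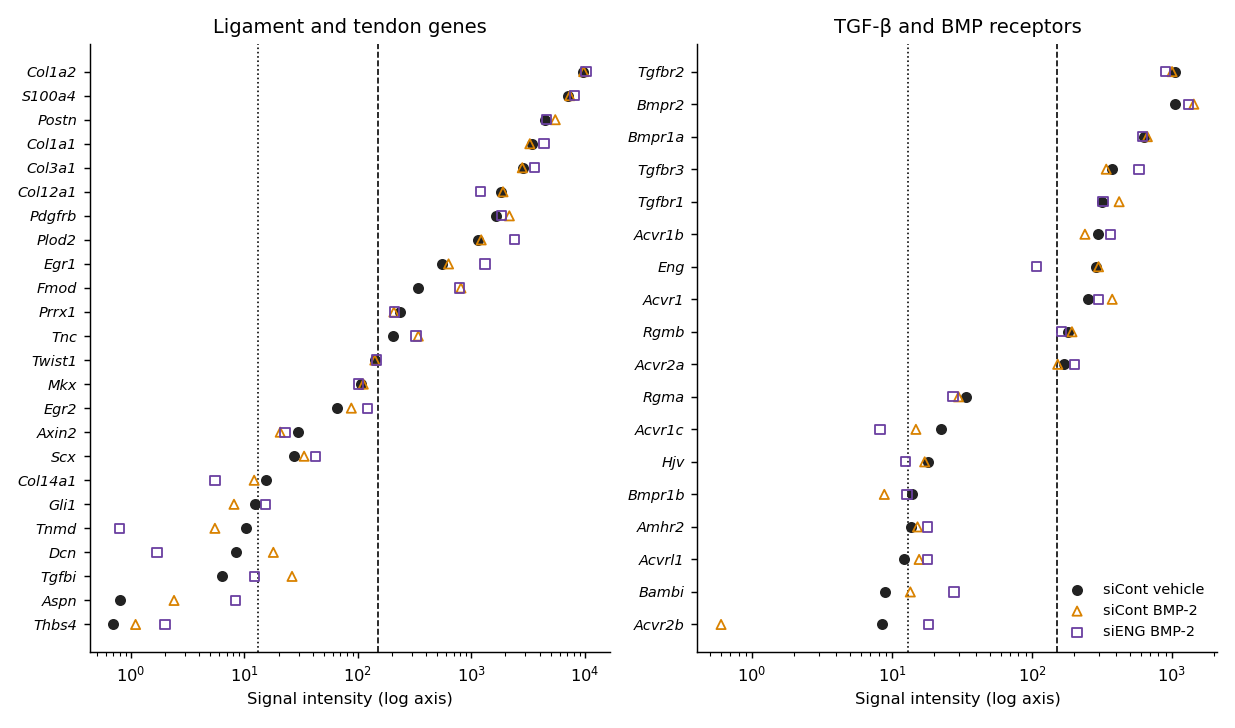
Signal intensity (horizontal log axis) of each ligament and tendon gene (left) and each TGF-β or BMP receptor gene (right) from the probe set brightest on the vehicle array, with a filled circle for siCont vehicle, a triangle for siCont BMP-2 and a square for siENG BMP-2. Dotted and dashed lines mark 13.1 and 152, and bright genes such as Col1a2 and Postn sit close together on the 3 arrays while dim genes such as Tnmd spread.

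General fibroblast markers did not stand above the background as a list. Of 18 genes read, 6 were bright (33.3%) and 7 were in the Bacillus range (38.9%). Vimentin (Vim), the intermediate filament of mesenchymal cells, had 7200, 6385 and 8925, and fibronectin (Fn1) 6292, 6551 and 6886. S100a6, P4hb, Lrp1 and the collagen receptor gene Ddr2 were the other bright members. Thy1, the surface antigen often used to mark stromal cells, had 6.6, 12.6 and 1.1, within the Bacillus range on every array. Lumican (Lum) at 7.2, Cd34 at 4.2, Fap at 1.7, Pi16 at 1.7, Dpt at 11 and Mfap5 at 10.0 lay in the same range with vehicle. Pdgfra, the PDGF receptor of most fibroblasts, had 58.2, 88.0 and 98.9, between the limits on all 3 arrays.

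Markers of mesenchymal stromal cells, most of them surface proteins, were bright in 7 of 15 genes read (46.7%, against 35.8% of all genes). In the Bacillus range were 3 (20%, against 33.4%). With the dimmest probe set 1 was bright and 10 were in the range. Over genes with several probe sets 50.2% were bright. Cxcl12, the chemokine that retains blood progenitors in marrow, had 2709, 3027 and 2025. The integrin gene Itgb1, the tetraspanin gene Cd9, Cd44, Vcam1, Itga5 and Eng were also bright, and Nt5e (CD73) lay between the limits at 48.4. Eng, which encodes the accessory receptor endoglin, had 286, 299 and 108, the last from the array of cells given the siRNA against it. Icam1, Alcam and Thy1 were the members in the Bacillus range.

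Several genes of the actin cytoskeleton were bright. Of 19 smooth muscle and pericyte genes, 9 were bright (47.4%) and 5 lay in the Bacillus range (26.3%), or 4 and 9 with the dimmest probe set. Over all genes 35.8% were bright, and over genes with several probe sets 50.2%. Acta2, the smooth muscle actin that myofibroblasts and cultured fibroblasts also make, had 7387, 6983 and 8306. Those signals came from an _s_at probe set, and its other probe sets had 55.5 and 35.9 with vehicle, neither bright. Without _x_at and _s_at probe sets 7 genes of the list were bright. Tagln, which encodes the actin-binding transgelin, had 2254, 2304 and 4055. Cald1, Tpm1, Cnn2, Myl9, Tpm2, Notch3 and Smtn completed the bright members. Myh11, the heavy chain of smooth muscle myosin, had 9.6, 6.7 and 5.4, and the pericyte gene Rgs5 had 15.2, 12.0 and 10.8. Cnn1 at 2.5, the cofactor gene Myocd at 4.1, Kcnj8 at 2.4 and Abcc9 at 1.5 were within the Bacillus range with vehicle.

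Mineralising-cell genes were mostly dim. Of 14 genes read for osteoblasts, osteocytes and cementoblasts, 1 was bright (7.14%, against 35.8% of all genes) and 5 lay between the limits. In the Bacillus range were 8 (57.1%, against 33.4%). The bright gene was the adhesion molecule gene Cadm1 at 571. Sp7, the osterix factor that commits osteoblasts, had 38.4, 56.5 and 26.3, and Alpl, the alkaline phosphatase that frees phosphate for mineral, had 20.1, 44.8 and 35.2. Both lay between the limits on all 3 arrays. Ibsp, bone sialoprotein, had 12.5, 11.7 and 4.6 in its brighter probe set, within the Bacillus range throughout. Dlx5 at 13.0 lay just inside that range, with Phex, Mepe, Sost, Pth1r, Dmp1 and Tnfsf11 below it, while the kinase gene Fam20c had 73.6, Omd 25.8 and Smpd3 19.6.

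Among the inhibitors of mineralisation, 2 of 7 genes read were bright (28.6%, against 35.8% of all genes) and 3 lay in the Bacillus range (42.9%, against 33.4%). Ank, the transporter that supplies the mineral inhibitor pyrophosphate, had 317, 313 and 325, nearly level over the arrays. Mgp, matrix Gla protein, had 256, 206 and 631. Msx2, a homeobox repressor studied in the ligament as a brake on mineralisation, had 101.3, 192.4 and 143.0 in its brighter probe set and 21.0 with vehicle in the other. Nt5e lay between the limits, and Abcc6, Ahsg and Tnfrsf11b, the decoy receptor that restrains osteoclasts, were in the Bacillus range.

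Few markers of the other lineages the culture could hold were bright. No gene was bright among 19 of chondrocytes, 20 of epithelium including enamel epithelium, or 17 of leukocytes. In 4 lists 1 gene each was bright, among 18 endothelial, 16 skeletal muscle, 11 osteoclast and 13 Schwann cell and neuron genes. Of all genes 35.8% were bright. The cartilage list had 15 members in the Bacillus range (78.9%), with Sox9, the master factor of cartilage, at 8.9, 5.5 and 8.4, Col2a1 at 11.5, 41.1 and 28.8, Acan at 7.1 and Col10a1 at 6.4. The highest signal of the cartilage list was that of Col9a1 at 43.7. In the endothelial list the bright gene was Eng and 13 others lay in the Bacillus range (72.2%), with Pecam1 at 1.4, Cdh5 at 7.2, Kdr at 4.2 and Vwf at 4.0 on the vehicle array. In skeletal muscle the bright gene was Mef2c at 167, and Myod1 at 12.4, Myog at 4.7 and Pax7 at 8.1 were within the Bacillus range. The muscle creatine kinase gene Ckm lay between the limits at 27.5.

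Leukocyte genes ran from 0.4 for Itgam to 71.0 for Cd68, with the pan-leukocyte gene Ptprc at 6.0, Cd3e at 4.4, Cd79a at 3.3 and Csf1r at 43.4. Epithelial genes ran from 0.6 for Odam to 26.2 for Epcam, with the basal keratin gene Krt14 at 25.2, the adherens cadherin Cdh1 at 9.1 and the enamel matrix gene Ambn at 7.9. Osteoclast genes other than Nfatc1, a factor also used by other cells and bright at 298, were at 14 or less, with the protease gene Ctsk at 14, Acp5 at 2.6, the fusion gene Dcstamp at 1.5 and Calcr at 0.8. The nerve list had 4 genes in the Bacillus range (30.8%, against 33.4% of all genes) and 8 between the limits (61.5%, against 30.9%). It held Map2 at 322 as its bright gene, Tubb3 at 143.0, the Schwann cell factor Sox10 at 21.7 and Rbfox3 at 24.3. With the mean of a gene's probe sets in place of the brightest, Map2, Mef2c and Nfatc1 were no longer bright, and 7 genes of the nerve list lay in the Bacillus range in place of 4. With the arrays scaled to a common trimmed mean, 2 of the nerve list were bright. In the adipocyte list 2 of 13 genes were bright (15.4%, against 35.8% of all genes), Cebpb at 1997 and Fabp4 at 261. Pparg, the factor that commits adipocytes, was at 1.9, 2.5 and 12.6, and Adipoq at 2.0. Fabp4 was read by 4 probe sets with vehicle signals of 261, 61.7, 6.0 and 3.7, and on their mean it was not bright.

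**Figure D3:**
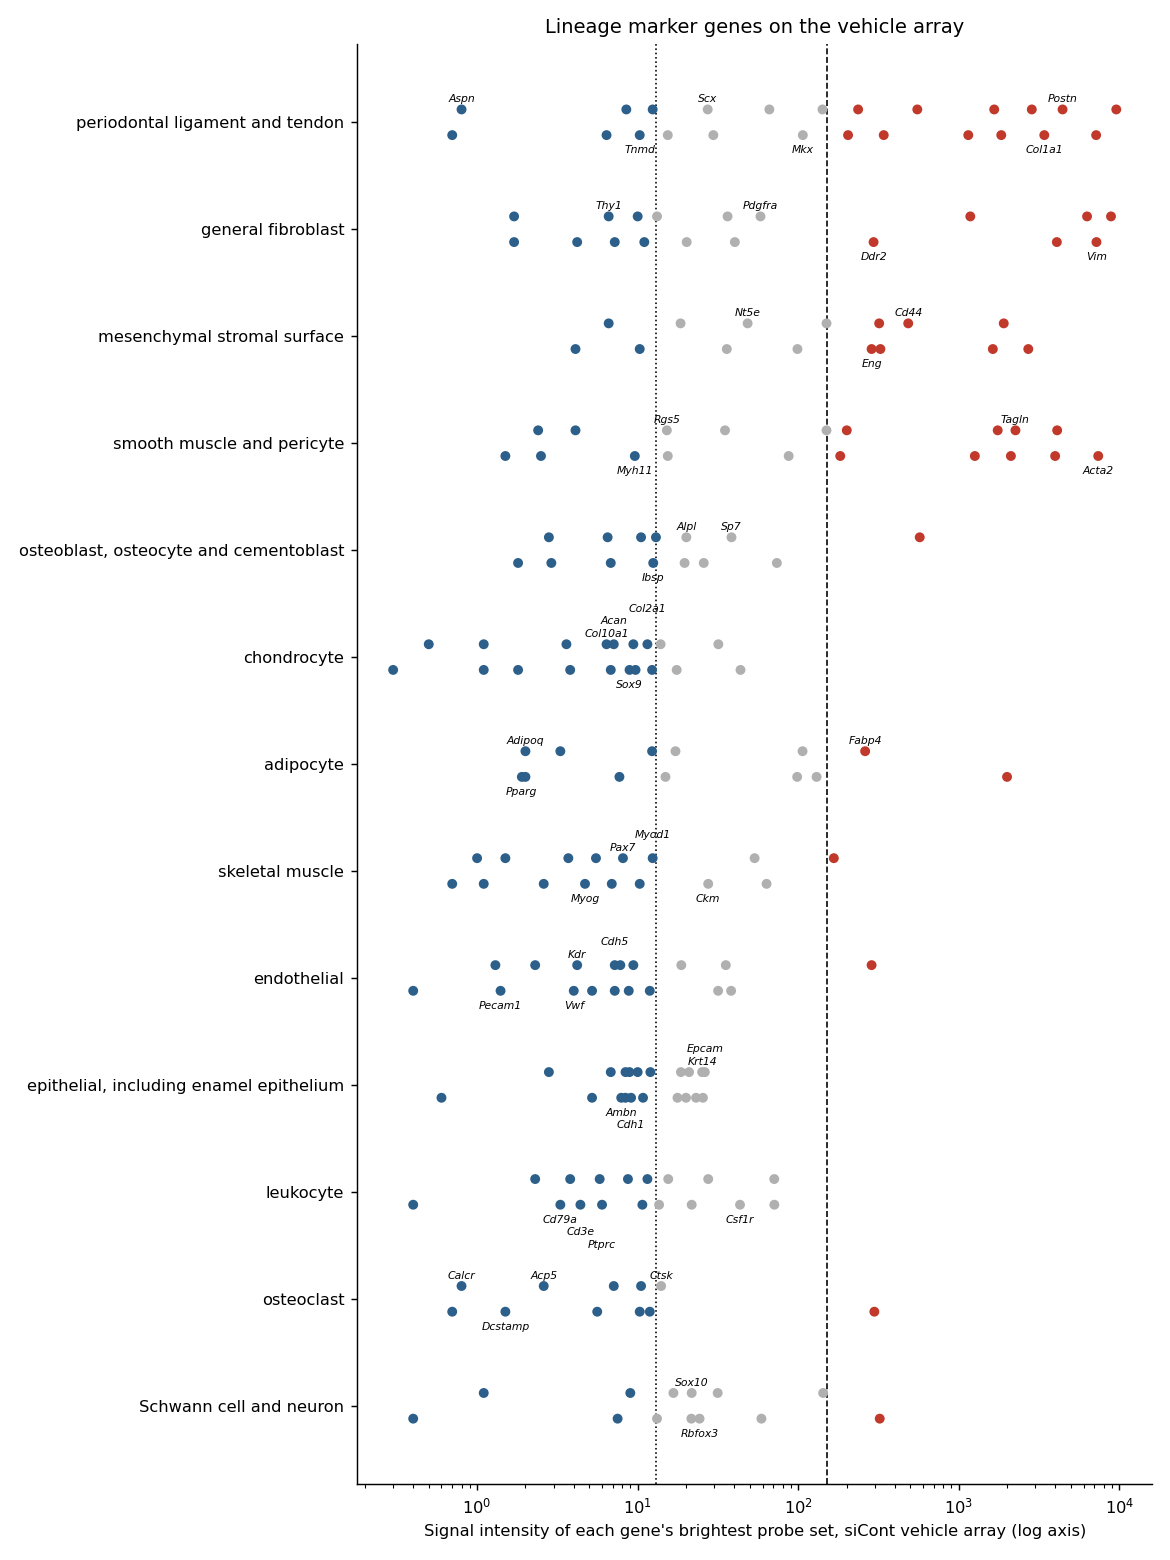
Signal intensity on the siCont vehicle array (horizontal log axis) of each gene of 13 lineage lists (rows), with 1 point per gene from its brightest probe set, red for bright, grey for between the limits and blue for the Bacillus range. Labels name the defining genes, vertical offsets carry no value, and the dotted and dashed lines mark 13.1 and 152. The cartilage, epithelial and leukocyte rows hold no red point, and the ligament row holds 12.

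As a list, collagen chains were bright about as often as all genes. Of 41 collagen chains read, 15 were bright (36.6%) and 15 lay in the Bacillus range (36.6%), or 13 and 24 with the dimmest probe set. Col5a2 and Col5a1, chains that set fibril diameter, had vehicle signals of 7372 and 1302, and the basement membrane chains Col4a1, Col4a2 and Col4a5 3306, 1677 and 1398. The bright chains were completed by Col1a1, Col1a2, Col3a1, Col12a1, Col6a1, Col6a2, Col8a1, Col18a1, Col16a1 and Col5a3. Col6a3, the partner of Col6a1 and Col6a2 in type VI collagen, had 111.3, 173.8 and 163.2, under the bright limit with vehicle and above it on the other arrays. The cartilage chains Col2a1, Col11a1, Col11a2, Col9a2, Col9a3 and Col10a1, the basement membrane chains Col4a3 and Col4a4, Col15a1 at 10.6, the fibrillar chain Col24a1 at 1.2 and the epithelial chain Col17a1 were within the Bacillus range with vehicle. Col4a6 at 28.5, Col27a1 at 67.0 and Col9a1 lay between the limits.

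Enzymes that fold, hydroxylate and crosslink collagen formed one of the brightest matrix lists. Of 26 genes read, 19 were bright (73.1%, against 35.8%) and 2 lay in the Bacillus range (7.69%, against 33.4%), with a median of 403. Lox, the oxidase that starts crosslinks, had 6716, 6933 and 6042. Pcolce, which speeds the cutting of procollagen, had 6234, 5528 and 6019, and Serpinh1, the collagen chaperone HSP47, had 1995, 2134 and 2667. Each was far above the bright limit on all 3 arrays. P4ha1, a catalytic subunit of prolyl hydroxylase, had 424, 376 and 1523, and Plod1 453, 445 and 461. Lox was read by 3 probe sets, of which the dimmest had a vehicle signal of 24.2.

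Of 54 matrix glycoproteins read, 23 were bright (42.6%) and 19 lay in the Bacillus range (35.2%), or 13 and 31 with the dimmest probe set. Sparc had 10246, 10179 and 11062, and thrombospondin 1 (Thbs1) 2254, 2449 and 1468. The laminin chains Lama2, Lamb1, Lamc1, Lama5 and Lamb2 and the nidogens Nid1 and Nid2, all of basement membranes, were bright. Ccn2 and Ccn1, matricellular proteins induced by stretch and TGF-β, had vehicle signals of 2567 and 1103. Elastin (Eln) had 24.0, 22.4 and 27.2, and its second probe set 1.6 with vehicle. The microfibril genes Mfap2, Mfap4 and Mfap5 and the tenascin genes Tnxb and Tnn were in the Bacillus range.

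Of 37 proteoglycan genes, 13 were bright (35.1%) and 15 in the Bacillus range (40.5%), with 7 bright on the dimmest probe set. The cell surface heparan sulfate proteoglycans Sdc2, Sdc1, Sdc4, Sdc3, Gpc4, Gpc6 and Gpc1 were bright, from 217 for Gpc1 to 1817 for Sdc2. The glypicans Gpc2 at 1.8 and Gpc5 at 2.5 were in the Bacillus range, and Gpc3 lay between the limits at 14.5. Of the small leucine-rich proteoglycans, Fmod had 341, 810 and 793 and osteoglycin (Ogn) 248.8, 123 and 124 and were bright with vehicle, whereas Dcn, Lum, Kera, Epyc, Chad, Optc and Aspn were in the Bacillus range. Biglycan (Bgn) had 27.8, 41.5 and 81.2 in its brightest probe set. Versican (Vcan), the large hyaluronan-binding proteoglycan of loose matrix, was read by 8 probe sets, none above 7.4 with vehicle. Lubricin (Prg4), a lubricating proteoglycan of joints and tendon sheaths, was bright at 223, 514 and 375.5.

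Proteases and their inhibitors followed the background shares, with 13 of 35 bright (37.1%) and 12 in the Bacillus range (34.3%). With the dimmest probe set 6 were bright and 19 in the range. The membrane collagenase gene Mmp14 had 2416, 2378 and 1954, and the inhibitor genes Timp2, Timp3 and Timp1 had vehicle signals of 2320, 1471 and 1055. Mmp2, the gelatinase that Mmp14 activates, had 57.9, 66.3 and 49.1. The aggrecanase genes Adamts1, Adamts5 and Adamts4 were bright at 1734, 1210 and 230 with vehicle, and Adamts5 had 604 and 664 on the other arrays. Mmp3, Mmp8, Mmp9, Mmp10, Mmp12 and Mmp13 were in the Bacillus range. Among 24 integrin chains 6 were bright (25%) and 11 in the Bacillus range (45.8%), or 2 and 15 with the dimmest probe set. Itgav, Itgb1, Itgb5, Itga3, Itga5 and Itga7 were the bright ones, with Itgav at 2700 and Itgb1 at 1905. Of the collagen-binding alpha chains, Itga1 had 75.5, 86.7 and 109.3 and Itga2 11.8, 13.8 and 10.8, so neither was bright on any array.

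Genes that sense or answer mechanical load were bright in 14 of 18 cases (77.8%, against 35.8%), and none was in the Bacillus range. The YAP and TAZ coactivator genes Yap1 and Wwtr1 had 1010, 1069 and 1151 and 980.0, 983 and 1436. Piezo1, the stretch-gated channel, had 339, 343.5 and 486, whereas Piezo2 had 17.8 with vehicle. Trpv4, a channel opened by stretch and swelling, had 47.9, 24.5 and 27.5. The adhesion genes Vcl, Zyx and Tln1 and the YAP target genes Ankrd1, Amotl2, Ccn1 and Ccn2 were also bright. On the mean of its probe sets 1 gene of the list lay in the Bacillus range, and on the dimmest 9 were bright and 2 in the range.

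Receptors for TGF-β and BMP were bright in 10 of 18 cases (55.6%, against 35.8%), with 3 in the Bacillus range (16.7%, against 33.4%). Members such as Bmpr1a, Bmpr2 and Acvr1 had several probe sets. Of all genes with several, 50.2% were bright and 17.8% lay in the Bacillus range, so the list was near that background. BMP ligands signal through a type I and a type II receptor that phosphorylate Smad proteins, and TGF-β uses its own pair. Bmpr1a, a type I BMP receptor, had 627, 666 and 619, and Bmpr2, the type II receptor, had 1043, 1431 and 1318. The type I receptor Acvr1 had 252, 374 and 299. These receptors were bright on all 3 arrays. Tgfbr2 had 1049, 1001 and 893, Tgfbr1 318, 419 and 321, and the betaglycan gene Tgfbr3 376, 339 and 582. Acvr1b, Eng, the BMP coreceptor Rgmb and Acvr2a at 169.5 were the other bright members. Bmpr1b, the second BMP type I receptor, had 13.8, 8.8 and 12.8. Acvrl1, the endothelial receptor ALK1 with which endoglin works in vessels, had 12.1, 15.6 and 18.0. Acvr2b and the decoy receptor Bambi were in the Bacillus range with vehicle. The AMH receptor gene Amhr2, Acvr1c, Rgma and Hjv lay between the limits, from 13.6 for Amhr2 to 33.7 for Rgma. This list depended on the choice of probe set, since on the mean of each gene's probe sets 5 were bright and 7 were in the Bacillus range, and on the dimmest 0 were bright and 10 were in the range. Without _x_at and _s_at probe sets 5 were in the range.

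The genes of signal transducers downstream were bright in 7 of 8 Smads (87.5%, against 35.8% of all genes). Smad4, the shared partner, had 1145, 1090 and 1134. Of the BMP-activated Smads, Smad1 had 505, 738 and 858 and Smad5 242, 240 and 383, while Smad9 had 23.3, 37.7 and 57.1. The TGF-β-activated Smad2 and Smad3 had 378 and 199 with vehicle, and the inhibitory Smad6 and Smad7 had 325, 1381.5 and 1388 and 207, 806 and 685. On the mean of each gene's probe sets 4 of the 8 were bright, and on the dimmest 2. Few ligand genes were bright, with 4 of 27 read bright (14.8%) and 14 in the Bacillus range (51.9%). Bmp4 had 653, 561 and 722, Tgfb2 380, 287.5 and 330, Tgfb1 177.5, 127 and 151 and Tgfb3 155, 323 and 205. Inhba, the activin A subunit, had 99, 95.6 and 66.4. Bmp2, the ligand given in the experiment, had 5.9, 1.0 and 0.9, within the Bacillus range on every array. Of 18 secreted antagonists and modulators 7 were bright (38.9%) and 7 in the Bacillus range (38.9%). Htra1 and Fstl1 had vehicle signals of 3936 and 3813, Crim1, Twsg1, Bmper, Fst and Nbl1 ran from 258 to 1002, Grem1 had 86.6, the chordin gene Chrd 64.7 and Nog, which encodes the BMP trap noggin, had 1.5, 3.9 and 1.3.

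Sequences from the promoter table of RefSeq on GRCm38.p6 were set beside the signals. An entry was found for 14452 of the 18193 genes. For genes in the Bacillus range 76.3% had an entry, under the 80% set as the least coverage, so no share is given for them. Of 6507 bright genes, 5376 had an entry (82.6%). A promoter of 300 bases (250 before the start and 50 after) was called CpG-rich at an observed over expected CpG ratio of 0.6 or more and a GC content above 50%. Among bright genes 78.6% were CpG-rich, against 33.9% of all 27025 promoters in the table, and the median ratio was 0.818 against 0.389. TATAAA on either strand was in 6.23% of bright promoters and 14.2% of all, GGGCGG on either strand in 70.9% and 35.9%, and CCAAT on either strand in 39.6% and 37.9%. Each motif was searched on its own, neighbouring motifs can share end letters, and GGGCGG itself holds a CpG. The table also holds non-coding genes that the array does not read, so its shares are not those of the array's genes.

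CpG-rich promoters were counted in each list with enough entries, beside the 78.6% and the median ratio of 0.818 of all bright genes. Of 12 bright collagen chains with an entry 4 were CpG-rich (33.3%), with a median ratio of 0.559. Of 9 bright TGF-β and BMP receptor genes 8 were (88.9%), with a median of 0.885. Of the bright receptor tyrosine kinase genes 5 of 9 were CpG-rich (55.6%), and of the bright cytokine receptor genes 8 of 11 (72.7%). The shares were 25 of 34 (73.5%) for bright ribosomal proteins and 10 of 13 (76.9%) for bright mechanical genes. They were 8 of 11 (72.7%) for bright growth arrest genes and 4 of 9 (44.4%) for bright growth factor genes. These counts are small, and several lie near the share of all bright genes. The ligament, glycoprotein, proteoglycan, collagen modification and protease lists had too few entries for a share. The 250 bases before the start are shown, in lower case with each CpG in capitals, for the 2 label markers with an entry (Postn and Aspn), for the brightest collagen chain (Col1a2) and for the brightest TGF-β or BMP receptor (Tgfbr2) with one. The regions are chr3:54359017-54359266 on the plus strand for Postn, chr13:49544193-49544442 on the plus strand for Aspn, chr6:4505368-4505617 on the plus strand for Col1a2 and chr9:116175364-116175613 on the minus strand for Tgfbr2.
Postn: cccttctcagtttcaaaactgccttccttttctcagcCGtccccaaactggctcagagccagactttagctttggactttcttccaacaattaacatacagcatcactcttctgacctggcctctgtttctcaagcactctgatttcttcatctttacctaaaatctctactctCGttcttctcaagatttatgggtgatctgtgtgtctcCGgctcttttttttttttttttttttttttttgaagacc
Aspn: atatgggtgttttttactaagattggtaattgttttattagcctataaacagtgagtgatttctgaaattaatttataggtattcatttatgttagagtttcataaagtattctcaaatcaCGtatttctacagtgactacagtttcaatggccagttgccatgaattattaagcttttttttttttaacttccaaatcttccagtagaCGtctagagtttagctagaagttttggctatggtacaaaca
Col1a2: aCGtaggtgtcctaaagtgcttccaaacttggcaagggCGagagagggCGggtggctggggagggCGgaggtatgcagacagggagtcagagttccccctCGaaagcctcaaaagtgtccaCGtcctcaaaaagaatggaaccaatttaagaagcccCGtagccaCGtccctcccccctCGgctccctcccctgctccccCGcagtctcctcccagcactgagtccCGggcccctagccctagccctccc
Tgfbr2: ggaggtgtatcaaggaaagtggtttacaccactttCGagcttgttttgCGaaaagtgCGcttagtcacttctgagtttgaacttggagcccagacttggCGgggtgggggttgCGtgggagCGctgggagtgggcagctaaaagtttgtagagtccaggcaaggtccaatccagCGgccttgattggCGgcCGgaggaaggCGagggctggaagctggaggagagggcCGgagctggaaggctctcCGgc
The bright Postn and the dim Aspn both held few CpG, 3 and 2, while Col1a2 held 11 and Tgfbr2 12. TATAAA occurred on Aspn and on none of the other 3, GGGCGG on Col1a2, and CCAAT on Aspn, Col1a2 and Tgfbr2. Low CpG content went with a bright signal in one ligament marker and a signal in the Bacillus range in another. Motif matches describe these letters only.

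Transcription factor genes of mesenchyme were bright in 15 of 28 cases (53.6%), with 6 in the Bacillus range (21.4%), or in 7 and 10 on the dimmest probe set. Snai2, a repressor of epithelial genes, had 1148, 1495 and 1412, Zeb1 387, 371 and 295 and Prrx1 236, 208 and 209. Foxp1, Nfix, Tead1, Tcf4, Klf4, Tbx18, Zeb2, Creb3l1, Prrx2, Twist2, Foxf1 and Osr1 were also bright. Twist1, which keeps mesenchyme undifferentiated, had 141.6, 141.2 and 145.4, just under the limit on every array. Tcf21, Foxf2, Tbx5, Osr2, Meox1 and Meox2 were in the Bacillus range.

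Few positional genes were bright. Of 24 homeobox and related genes of the jaw and cranial neural crest, 5 were bright (20.8%, against 35.8%) and 11 lay in the Bacillus range (45.8%). Dlx2 and Dlx1, neighbouring homeobox genes that pattern the jaw arch, had 579, 1196 and 688 and 400, 835.5 and 529. Nr2f2, Tfap2b and Tfap2a were the other bright ones, the last at 155, 176 and 143. Msx1 had 26.6, 29.8 and 28.9. Pax9, a factor of the tooth mesenchyme, had 2.5, 15.5 and 5.3, and Barx1, Pitx1, Lhx8, Six2, Hand2 and Gsc were also in the Bacillus range with vehicle. On the mean of each gene's probe sets 3 of the 24 were bright. Hox genes, which pattern the trunk and limbs and are largely silent in the neural crest of the jaw, held no bright member among 33 read, with 22 in the Bacillus range (66.7%, against 33.4%). Hoxa2, Hoxb2 and Hoxd3 were in that range with vehicle, at 11.4, 2.8 and 5.2, and Hoxc6 had 25.5. Hoxc13 had the highest vehicle signal of the list at 64.8, with 104.0 and 107.7 on the other arrays, and no Hox gene was bright on either of them.

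Receptors for other signals gave a more mixed picture. Of 23 Wnt, Notch and Hedgehog receptor genes 12 were bright (52.2%) and 2 in the Bacillus range (8.7%), among them Lgr4 at 1224, Notch2 at 625, Lrp6 at 332, Fzd1 at 283 and Ptch1 at 158. On the mean of each gene's probe sets 4 were in the Bacillus range, and on the dimmest 1 was bright and 9 were in the range. Over all genes 35.8% were bright, and over genes with several probe sets 50.2%. Among 27 cytokine receptor genes 12 were bright (44.4%) and 6 were in the Bacillus range (22.2%), or 3 with the highest Bacillus control of the vehicle array alone as the limit. With the dimmest probe set 3 were bright and 12 in the range. Tnfrsf12a had 1630, 1969 and 2233, Tnfrsf1a 642, 560 and 579, Osmr 442.5, 421 and 223 and the shared IL-6 family subunit Il6st 370, 406 and 374. Il1r1 had 147.5, 269 and 217.5, just under the bright limit with vehicle. Receptor tyrosine kinases were bright in 10 of 48 cases (20.8%) and in the Bacillus range in 17 (35.4%), or in 6 and 32 on the dimmest probe set. Axl had 2449, 2350 and 2909, Ddr1 1599, 2139 and 1102, Met 601, 542 and 513 and Igf1r 374, 311 and 203.5. Fgfr1, the main FGF receptor of mesenchyme, had 86.3, 91.1 and 97.8, and Kit, Kdr, Tek and Ror2 were in the Bacillus range with vehicle.

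Secreted signals were bright for a few genes. Of 28 cytokines and chemokines 6 were bright (21.4%) and 11 in the Bacillus range (39.3%). After Cxcl12 came Kitl, the ligand of KIT, at 1416, 1115 and 1271, and Csf1, the macrophage growth factor, at 758, 851 and 1079. Ccl2 had 452, 319 and 276, Cxcl1 341, 318 and 149 and Il6 199, 197 and 56.7. Tnfsf11 (RANKL), which drives osteoclasts, had 1.8, 1.2 and 0.5, and Tnf, Il1a, Csf2 and Il33 were in the same range. Among 35 growth factors and IGF-binding proteins 10 were bright (28.6%) and 7 in the Bacillus range (20%), or 11 on the mean of each gene's probe sets. Pdgfc had 1741, 2223 and 1732, Igfbp7 1101, 1406 and 2774, Bdnf 443, 622 and 529, Vegfd 417, 183 and 207, Vegfa 182.5, 227 and 359 and Igf1 165, 220.1 and 195. Igfbp5 at 32.6 and Fgf2 at 12.1 were not bright.

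Cell cycle genes were bright almost throughout, and so were most genes of cyclin-dependent kinase inhibitors. Of 28 cell cycle genes read, 27 were bright (96.4%, against 35.8%) and none was in the Bacillus range, with a median of 1190. On the dimmest probe set 16 were bright and 6 in the range. Mki67, a protein of dividing cells, had 1414, 1276 and 1302, Top2a, the topoisomerase of replicated chromosomes, 2206, 2312 and 2174, and Cdk1, the mitotic kinase, 2037, 1917 and 2026. Pcna, the replication clamp, had 6794, 6729 and 6747. These signals were nearly level over the 3 arrays. Tyms at 103.1 was the member not bright. Of 15 growth arrest and p53 genes, 12 were bright (80%), or 7 on the dimmest probe set. Cdkn1a, the p21 inhibitor, had 2287, 2245 and 2903, Cdkn2a, the INK4a and ARF locus lost in many immortal lines, 1900.5, 1678 and 1941, and Cdkn2b 1369, 971 and 1322. The inhibitor gene Cdkn1c had 27.7, 12.4 and 9.2, between the limits with vehicle and in the Bacillus range on the other arrays. Mdm2, the ubiquitin ligase of p53, had 923, 928 and 1280. Tert, the telomerase catalytic subunit, had 4.1, 0.7 and 2.5 in its brighter probe set, within the Bacillus range on every array.

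The classes held up to different degrees on the other arrays. There a gene's class came from the probe set brightest on that array, which could differ from the probe set brightest with vehicle. Tcf21 had 8.4, 0.8 and 2.1 in its printed probe set, yet was classed between the limits on both other arrays. With BMP-2 after siCont 35.9% of genes were bright and 34.2% were in the Bacillus range, and after siENG the shares were 38.5% and 33.9%. Of the 6507 genes bright with vehicle, 6319 were bright with BMP-2 after siCont (97.1% of the vehicle genes and 96.7% of that array's) and 6383 after siENG (98.1% and 91.1%). Of the 6071 genes in the Bacillus range with vehicle, 5367 were in it with BMP-2 after siCont (88.4% and 86.4%) and 5298 after siENG (87.3% and 85.9%). From bright to the Bacillus range, or the other way, moved 0 genes on either array. The siENG BMP-2 array was brighter as a whole, with a trimmed mean of 166, against 143 for siCont with BMP-2 and 141 for vehicle. Over the 751 listed genes read, 655 kept their class with BMP-2 after siCont (87.2%) and 647 after siENG (86.2%). Gas1, a growth arrest gene, had 248, 119 and 107 and Osr1 165, 97.6 and 86.8, bright with vehicle only, while Fzd7 had 132, 304 and 199 and Pgf 107, 233 and 248, bright only on the other arrays. Listed genes nearest the limits on the vehicle array were Tfap2a at 154.9 and Tgfb3 at 155.1 above 152, Mcam at 150.0 and Bmp8a at 149.5 below it, Ror1 and Fbln2 at 13.2 above 13.1, and Dlx5 at 13.0 and Itga8 at 12.8 below it.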

How the data were processed

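Total RNA of 3 PDL-L2 cultures was hybridised to Affymetrix mouse arrays, 1 culture for each condition. In the deposited table each probe set has a linear intensity on each array, made with GCOS 1.4 according to the submitters' processing notes. How the signal was computed, background-corrected and scaled was not stated in the paper or labels. A signal of 0 was listed for 3 probe sets on the vehicle array. Of 45101 probe sets, 64 controls were left out. Of the rest, 34945 had 1 gene symbol in the platform annotation, 932 several and 9160 none. Genes were named from probe sets with 1 symbol. For 34741 of these the symbol was looked up through the gene identifier in RefSeq (GRCm38.p6). The members, limits and 35 gene lists were chosen with earlier results of these data known. The lists held 808 genes, of which 751 were read, and the others are not analysed here. Named were the 25 brightest genes, the key members of each list whatever their signal, up to 6 further members by vehicle signal, every ligament, osteoblast and TGF-β and BMP receptor gene, and genes nearest the limits. Other genes named as members of a class were chosen after their values were seen. Class counts and promoter measures were tested on simulated data. Promoters took the first entry per symbol. The alternatives tried were another bright limit, 2 other Bacillus limits, the mean or the dimmest probe set, no _x_at or _s_at probe sets, and scaling to a common trimmed mean. Python 3.11.15, numpy 2.4.6, pandas 2.3.3, scipy 1.17.1 and matplotlib 3.10.9 were used.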

Additional observations from a re-analysis of the deposited data

Results flagged for a closer look

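Signals also appeared in probe sets that name no gene in the annotation used here and so enter no list. On the vehicle array 477 of 9160 such probe sets (5.21%) were bright, against 28.8% of the 34945 probe sets with 1 gene symbol and 38.7% of the 932 with several. The brightest of them had signals of 9921, 9568 and 10721 on the siCont vehicle, siCont BMP-2 and siENG BMP-2 arrays, and the next had 9403, 9480 and 11163. Both lay far above the highest Bacillus control signal of 13.1.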

How the results depend on the processing

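With the dimmest probe set of each gene, 3053 genes were bright in place of 6507, and among listed genes 135 were bright in place of 260 and 406 lay in the Bacillus range in place of 266. With the median Bacillus control of 2.4 as the limit, the range held 2080 genes in place of 6071 and 73 listed genes. Each other count over all or all listed genes stayed within 1.5 times under the other alternatives, from 5272 to 6696 bright genes. Of the counts for single lists, the dimmest probe set moved 23 of 35 bright and 17 of 35 Bacillus-range counts past 1.5 times, and the mean 7 and 5. The limit at the median Bacillus control moved 32 of 35 Bacillus-range counts. The lower limit of 11.2 moved 1 Bacillus-range count, leaving out _x_at and _s_at probe sets 1 and scaling 1 bright count. No listed gene went from the Bacillus range to bright under any of the 7 alternatives, and 44 went from bright to the range with the dimmest probe set. No paired analysis was possible because each condition had 1 array.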

Other observations

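Genes with 1 probe set and genes with several differed in class on the vehicle array. Of 9183 genes with 1 probe set, 21.6% were bright and 48.7% lay in the Bacillus range. Of 9010 genes with several, 50.2% were bright and 17.8% lay in the Bacillus range, where the brightest probe set gave the gene its class. Counts for lists whose genes have more probe sets, such as the receptors, are read against a background that mixes both kinds.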
